A study of Mus musculus with 4 samples.

Results

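Whole mouse lung contains transcripts of heart muscle, and 36 genes of cardiac muscle, chosen by name for their roles in the cardiomyocyte, were followed in RNA-Seq of 4 treatment groups, among the 17780 genes of the expression table. The choice was made with earlier results of these data known, so the shares of all genes given below are a description and not an independent check. The genes encode proteins of the thick filament (7 genes), the thin filament (5), the Z-disc and titin (9), calcium handling (7), energy and oxygen supply (4), and the natriuretic peptides and atrial gap junction (4). All 36 were found in the table. Male mice (C57BL/6 in the labels, C57BL/6J in the methods), purchased at an age of 6 to 7 weeks, had received by mouth vehicle (carboxymethylcellulose at 0.5%), the antiarrhythmic drug amiodarone at 300 mg/kg, the thrombin inhibitor dabigatran at 60 mg/kg, or both drugs together, 5 times per week. Poly(A) RNA of the left lung was sequenced as 1 library per group, which gave 4 libraries. The sample labels give 28 days of treatment and the study's methods give day 26. The sources used here do not say whether a library came from 1 mouse or from several.

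In mice, cardiomyocytes of the left atrium continue along the pulmonary veins into the lung, where they form a muscle sleeve around the vessel. These cells contract with the same sarcomere as the atrium: thick filaments of myosin slide along thin filaments of actin, calcium released from the sarcoplasmic reticulum binds to troponin to start each contraction, and calcium pumps end it. Atrial and ventricular cardiomyocytes use different myosin light chains, and atrial cells also store natriuretic peptide A and make sarcolipin, an inhibitor of the calcium pump.

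The label was checked against atrial and ventricular markers. Values are given below in the order vehicle, amiodarone, dabigatran and amiodarone + dabigatran (the combination), in FPKM, a read count corrected for the length of the transcript and for the depth of the library. Myl7, the atrial regulatory light chain, had 359, 176, 231 and 162 FPKM, and Myl4, the atrial essential light chain, had 284, 159, 183 and 132 FPKM. Myl2, the ventricular regulatory light chain, had 1, 0, 1 and 1 reads, and a count of 0 allows up to 3 reads, or 1.60e-05% of the amiodarone library. Nppb, which encodes natriuretic peptide B, had 0, 0, 2 and 1 reads, and Tnni1, the troponin I of the fetal heart and of slow skeletal muscle, had 2, 1, 2 and 2 reads. The atrial light chains were therefore abundant and the defining ventricular light chain was at or near 0 in all 4 libraries. The other ventricular markers were detected at lower levels than the atrial light chains. Myl3 had 18.7, 14.7, 10.4 and 8.98 FPKM, and Myh7 had 3.81, 3.61, 4.18 and 5.05 FPKM. Actc1, cardiac actin, had the highest FPKM of the members in the vehicle library, where it ranked 145 of 17780 genes.

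The vehicle library stood apart from the other 3 libraries in these genes. The summed level of the 36 members was 3049, 1689, 2147 and 1512 FPKM. They took 0.525% of all reads with vehicle (exact Clopper-Pearson 95% interval 0.521 to 0.528), 0.319% with amiodarone (0.316 to 0.321), 0.386% with dabigatran (0.383 to 0.389) and 0.280% (0.278 to 0.283) in the combination library. The intervals did not overlap. They cover counting error only, since reads are not independent molecules, and with 1 library per group no difference below has a replicate check and none was tested. Total reads were similar, from 17498486 to 18903401. In RNA of whole lung, fewer cardiomyocytes and less of these RNAs per cardiomyocyte cannot be told apart.

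**Figure D1:**
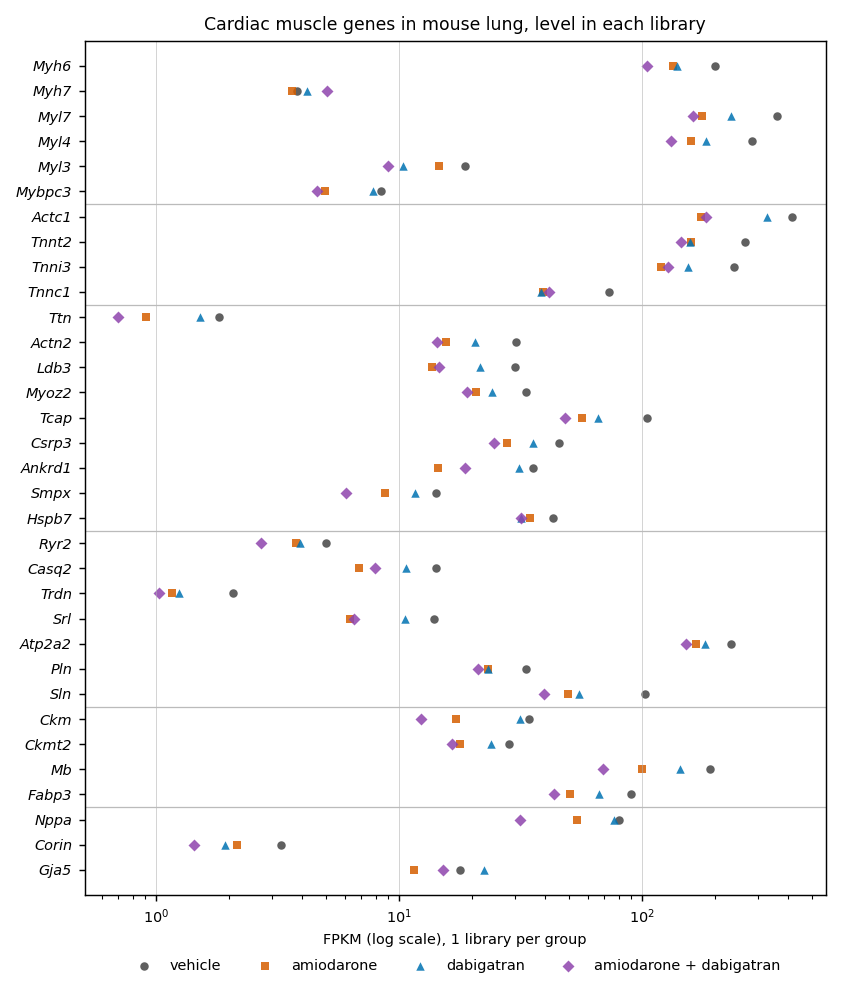
Level of each cardiac muscle gene in each library, in FPKM on a log scale, for the 33 members that reached 1 FPKM in at least 1 library. Horizontal lines separate the roles, from thick filament at the top to natriuretic peptides and gap junction at the bottom. The vehicle library (circles) is the rightmost point for 31 of the 33 genes, and Myh7 and Gja5 are the exceptions.

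Of the 36 members, 33 reached 1 FPKM in at least 1 library, and Myl2, Tnni1 and Nppb did not. Vehicle was the highest of the 4 libraries for 31 of these 33 members, against 28.1% of all 13536 genes at that level. The combination was the lowest library for 23 of the 33, against 20.4% of all genes. These shares describe only the members that passed the level.

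The first question of the design is how the lung with amiodarone differed from the lung with vehicle. Among members with at least 1 FPKM in either library, 25 of 33 were at least 1.5-fold lower with amiodarone, while 7.22% of all 13402 genes were. None of the 33 was at least 1.5-fold higher, against 5.49% of all genes. All 33 ratios of amiodarone to vehicle were below 1, from 0.407 for Ankrd1 to 0.948 for Myh7, with a median of 0.562. On the log2(FPKM + 1) scale the members had a median difference of -0.68, and all genes had one of -0.05. The ratio lay below 1 by more than its counting interval for 32 of the 33, with Myh7 the exception, and for 30.1% of all genes, and it lay above 1 in this way for none of the 33 and for 19.6% of all genes. The 8 members that did not reach 1.5-fold were Myh6, Myh7, Myl3, Hspb7, Ryr2, Atp2a2, Pln and Nppa.

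Dabigatran alone went with a smaller difference from vehicle. At least 1.5-fold lower with dabigatran were 10 of 33 members, namely Myl7, Myl4, Myl3, Tnnt2, Tnni3, Tnnc1, Tcap, Trdn, Sln and Corin, against 1.52% of all 13373 genes. None was at least 1.5-fold higher, against 1.45% of all genes. The ratios ran from 0.524 for Tnnc1 to 1.26 for Gja5, with a median of 0.741, and 31 of 33 were below 1, as were 6614 of all 13373 genes. Beyond the counting interval, 27 members were lower, against 13.4% of all genes, and 1 was higher, against 15.2%. The median log2 difference was -0.43 for the members and 0.00 for all genes.

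The comparison of the combination with amiodarone alone, which asks what dabigatran added to amiodarone, gave the smallest differences. Myl3, Nppa and Corin were at least 1.5-fold lower with the combination, 3 of 32 members, against 2.07% of all 13261 genes. None was at least 1.5-fold higher, against 2.46% of all genes. Here 23 of the 32 ratios were below 1, with a median of 0.913, as were 5563 of all 13261 genes. By more than the counting interval, 16 members were lower, against 15.0% of all genes, and 6 were higher, against 21.2%.

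Set against dabigatran alone, the combination had 10 of 33 members at least 1.5-fold lower (Mybpc3, Actc1, Ttn, Ankrd1, Smpx, Srl, Ckm, Mb, Fabp3 and Nppa), against 4.39% of all 13379 genes. None was at least 1.5-fold higher, against 4.43% of all genes. The ratios ran from 0.389 for Ckm to 1.21 for Myh7, with a median of 0.702, and 30 of 33 were below 1, as were 7028 of all 13379 genes. The difference exceeded the counting interval downwards for 28 members, against 23.5% of all genes, and upwards for 1, against 19.5%. Amiodarone against vehicle and the combination against dabigatran share no library. In both, the same 30 of 33 members were lower, and 5017 of 13245 genes were lower in both. For the pair of dabigatran comparisons that share no library, 23 of 32 members were lower in both, and 2406 of 13098 genes were. Genes that the same cells express can move together, so these counts of members are not counts of independent observations.

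**Figure D2:**
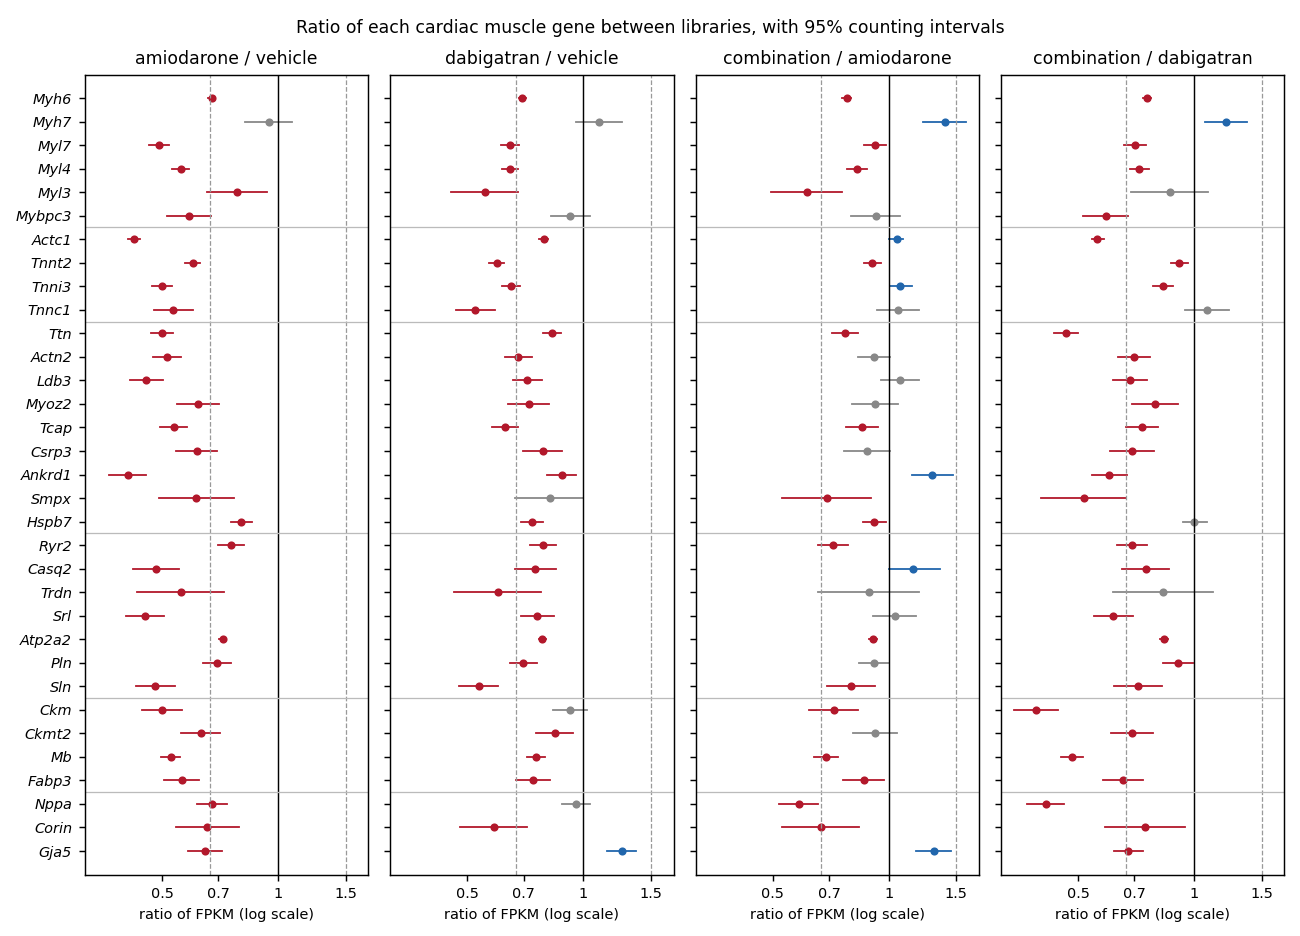
Ratio of FPKM between 2 libraries for each of the 33 members, on a log axis, in the 4 comparisons. Points are ratios and bars are 95% counting intervals, drawn in red where the whole interval is below 1, in blue where it is above 1 and in grey where it spans 1. Dashed lines mark 1.5-fold. In the amiodarone column every point is left of 1 (median 0.562), and in the combination over amiodarone column the points lie on both sides (median 0.913).

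Both myosin heavy chains of the thick filament were detected. Myh6, the alpha myosin heavy chain that drives fast contraction in the mouse heart (chr14:54941921-54968017, GRCm38.p6), had 199.7, 134.6, 138.9 and 104.5 FPKM. Its neighbour Myh7, the slow beta myosin heavy chain (chr14:54970684-54994626), had 3.81, 3.61, 4.18 and 5.05 FPKM. Myh6 was highest with vehicle and lowest with the combination, and Myh7 was highest with the combination. The ratio of combination to amiodarone was 0.777 (0.758 to 0.796) for Myh6 and 1.40 (1.23 to 1.59) for Myh7. Both values are uncertain, because 22.6% of the 50-base stretches of the longest Myh6 transcript also occur in Myh7, so that reads from the shared stretches are divided between the genes by estimation, and Myh7 rests on 401 to 576 estimated reads against 11951 to 21114 for Myh6.

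Among the light chains, Myl7 (chr11:5896637-5898782) was the most abundant, and its ratio to vehicle was 0.491 (0.463 to 0.520) with amiodarone and 0.644 (0.610 to 0.680) with dabigatran. For Myl4 the same ratios were 0.559 (0.532 to 0.588) and 0.643 (0.613 to 0.675). Myl3, the essential light chain of the ventricle and of slow skeletal muscle, had 18.7, 14.7, 10.4 and 8.98 FPKM. It was lower with dabigatran than with amiodarone, the opposite order to the atrial chains. Mybpc3, cardiac myosin-binding protein C, which regulates the cross-bridge, had 8.45, 4.97, 7.80 and 4.60 FPKM. Its values fell into a higher pair without amiodarone and a lower pair with it, and the ratio of dabigatran to vehicle, 0.923, had an interval that spans 1 (0.822 to 1.04).

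In the thin filament, Actc1 (chr2:114047282-114052875) had 413, 175, 326 and 183 FPKM. It too was higher in both libraries without amiodarone, and the ratio was 0.423 (0.408 to 0.438) for amiodarone against vehicle and 0.561 (0.542 to 0.582) for the combination against dabigatran. Tnnt2, the cardiac troponin T that anchors the troponin complex to tropomyosin, had 265, 159, 158 and 144 FPKM. Tnnc1, the calcium-binding troponin C, had 73.3, 39.3, 38.4 and 41.5 FPKM. For both, the 3 drug libraries lay close together and below vehicle. Tnni3, the inhibitory cardiac troponin I, had 238, 119, 154 and 128 FPKM, which placed dabigatran between vehicle and the other libraries. All 4 thin filament genes that passed the level were at least 1.5-fold lower with amiodarone than with vehicle (7.22% of all genes). With dabigatran 3 of the 4 were (1.52% of all genes), and Actc1 (0.789) was the exception.

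The stretches of 120 bases before a RefSeq transcript start of 7 members are shown because they hold sequences that muscle transcription factors are known to bind. RefSeq windows of 250 bases before to 50 after the start (GRCm38.p6) were matched for 31 of 36 members, which gave 39 windows, and Tcap, Sln, Atp2a2, Trdn and Srl had none. On both strands, the CArG box bound by serum response factor occurred in 5 of 39 member windows (12.8%) and in 1.63% of all 32851 windows. These 5 windows belong to 4 genes, because Ldb3 has 2 overlapping windows that hold the same site. The MEF2 box occurred in 4 of 39 (10.3%) and in 1.86% of all, and the M-CAT sequence CATTCC, bound by TEAD factors, in 10 of 39 (25.6%) and in 14.7% of all. No member window held overlapping matches to different motifs. A match describes the letters only. Each sequence is written 5' to 3' on the strand of its gene, with the match in capitals:
Actc1, CArG box, chr2:114052876-114052995, minus strand: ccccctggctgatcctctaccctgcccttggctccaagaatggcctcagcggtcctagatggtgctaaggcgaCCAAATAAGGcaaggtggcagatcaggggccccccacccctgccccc
Ldb3, CArG box, chr14:34588608-34588727, minus strand: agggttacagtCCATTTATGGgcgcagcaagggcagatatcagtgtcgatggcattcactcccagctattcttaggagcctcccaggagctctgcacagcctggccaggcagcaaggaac
Myl3, CArG box, chr9:110763558-110763677, plus strand: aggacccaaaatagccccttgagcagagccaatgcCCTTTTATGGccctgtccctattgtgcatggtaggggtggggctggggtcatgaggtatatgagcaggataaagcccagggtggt
Myl7, CArG box, chr11:5898783-5898902, minus strand: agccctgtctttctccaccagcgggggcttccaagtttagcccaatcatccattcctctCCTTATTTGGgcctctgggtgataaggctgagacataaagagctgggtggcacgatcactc
Casq2, MEF2 box, chr3:102086295-102086414, plus strand: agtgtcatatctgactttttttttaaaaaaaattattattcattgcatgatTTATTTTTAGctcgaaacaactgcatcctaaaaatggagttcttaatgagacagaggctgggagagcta
Mybpc3, MEF2 box, chr2:91118024-91118143, plus strand: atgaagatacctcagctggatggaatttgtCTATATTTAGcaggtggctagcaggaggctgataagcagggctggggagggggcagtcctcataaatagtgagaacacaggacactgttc
Myoz2, MEF2 box, chr3:123034988-123035107, minus strand: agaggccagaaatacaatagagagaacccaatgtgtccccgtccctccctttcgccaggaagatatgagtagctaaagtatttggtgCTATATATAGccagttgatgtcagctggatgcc
For Myl7 and Actc1, the CArG box began 61 and 47 bases before the start. Ttn also had a MEF2 box, and its sequence is not shown.

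Genes of the Z-disc, which anchors the thin filaments, and of titin, the spring of the sarcomere, were lower in the 3 drug libraries for all 9 members. Ankrd1, a stress-responsive protein of the titin spring and the nucleus, had 35.4, 14.4, 31.1 and 18.8 FPKM. The ratio of amiodarone to vehicle was 0.407 (0.364 to 0.454), the lowest of the 33, whereas the combination was above amiodarone at 1.30 (1.15 to 1.47). Ldb3, which links alpha-actinin at the Z-disc, had 30.0, 13.7, 21.5 and 14.6 FPKM. Ttn, titin itself, had 1.82, 0.91, 1.51 and 0.70 FPKM, a low value per length that rests on 1156 to 2750 reads. Actn2, the alpha-actinin that cross-links actin, had 30.4, 15.6, 20.6 and 14.4 FPKM, and Tcap, the titin cap, had 104.9, 56.3, 65.6 and 48.1 FPKM. In Ankrd1, Ldb3, Ttn and Actn2, both libraries with amiodarone were below both libraries without it, and so it was for Tcap.

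The remaining Z-disc members shared 1 order of the libraries, except Hspb7. Csrp3, a muscle LIM protein, had 45.3, 27.9, 35.5 and 24.5 FPKM, and Myoz2, a calcineurin-binding protein of the Z-disc, had 33.3, 20.6, 24.0 and 19.0 FPKM. Smpx, a small X-linked muscle protein, had 14.3, 8.75, 11.7 and 6.04 FPKM. All 3 were ordered from vehicle to dabigatran to amiodarone to the combination. Hspb7, a cardiac small heat shock protein, had 43.0, 34.5, 31.6 and 31.7 FPKM and was the only Z-disc member that did not reach 1.5-fold with amiodarone (0.803, 0.753 to 0.857).

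All 7 calcium handling genes were lower than vehicle with amiodarone and with dabigatran. At least 1.5-fold lower were 4 of 7 with amiodarone (7.22% of all genes) and 2 of 7 with dabigatran (1.52%). Atp2a2, the SERCA2 pump that returns calcium to the reticulum and that most cells express, had 231.6, 166.5, 181.3 and 151.8 FPKM, and its ratio of amiodarone to vehicle was 0.719 (0.703 to 0.735). Sln, sarcolipin, an atrial inhibitor of that pump (chr9:53850251-53853849), had 103, 49.5, 55.2 and 39.5 FPKM, with a ratio of 0.480 (0.427 to 0.540). Pln, phospholamban, the other inhibitor of the pump, had 33.3, 23.1, 23.3 and 21.1 FPKM. Sln thus differed more from vehicle than Atp2a2 or Pln in every drug library. Casq2, which buffers calcium in the reticulum, had 14.2, 6.85, 10.7 and 7.98 FPKM, and Srl, sarcalumenin, another luminal calcium binder, had 14.0, 6.30, 10.6 and 6.53 FPKM. Both were lowest with amiodarone alone. Ryr2, the release channel, had 4.98, 3.76, 3.92 and 2.70 FPKM, and Trdn, triadin, which ties calsequestrin to that channel, had 2.07, 1.16, 1.24 and 1.03 FPKM from 87 to 162 reads.

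The genes of energy and oxygen supply were the group in which the combination was lowest for every member. Mb, myoglobin, the oxygen store of muscle, had 190.4, 100.3, 143.5 and 69.1 FPKM. Ckm, the muscle creatine kinase, had 34.2, 17.1, 31.6 and 12.3 FPKM. For Ckm, dabigatran was close to vehicle, with a ratio of 0.923 whose interval spans 1 (0.835 to 1.02), and the ratio of combination to dabigatran was 0.389 (0.340 to 0.444), the lowest of any member in that comparison. Ckmt2, the mitochondrial creatine kinase of muscle, had 28.3, 17.8, 23.8 and 16.4 FPKM. Fabp3, the heart fatty acid binding protein, had 89.7, 50.4, 66.4 and 43.4 FPKM, and 29.2% of its 50-base stretches are shared with the pseudogene Fabp3-ps1. All 4 were at least 1.5-fold lower with amiodarone than with vehicle, as were 7.22% of all genes. With dabigatran none reached 1.5-fold, while 1.52% of all genes were at least that much lower. Skeletal muscle also makes Ckm and Mb, as it does Myl3. The skeletal muscle list of 17 genes summed to 24.3, 18.1, 31.9 and 12.7 FPKM, highest in the dabigatran library, where Acta1, skeletal actin, had 2.45 FPKM against 0.11 to 0.16 FPKM elsewhere. In that list 3, 6, 1 and 5 of the 17 genes had 0 reads. The part of skeletal muscle in the Ckm and Mb values, or in those of other members, was not tested.

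Nppa, the precursor of atrial natriuretic peptide (chr4:148000722-148002074), had 80.0, 54.0, 76.5 and 31.5 FPKM. Dabigatran was close to vehicle (0.956, 0.879 to 1.04), and the combination was below amiodarone (0.584, 0.520 to 0.654). Corin, the protease that cleaves this precursor, had 3.28, 2.15, 1.92 and 1.43 FPKM, so that all 3 drug libraries were below vehicle. Gja5, the gap junction protein connexin 40 of the atrium and of arterial endothelium, had 17.8, 11.5, 22.3 and 15.1 FPKM. It was highest with dabigatran, with a ratio to vehicle of 1.26 (1.15 to 1.37), the only member above vehicle beyond its interval in either library with 1 drug. The 6 endothelial marker genes were also each higher with dabigatran than with vehicle, and their sum was 800, 884, 933 and 757 FPKM. With amiodarone, 5 of the 6 were higher than with vehicle beyond the counting interval (19.6% of all genes) and 1 was lower (30.1%). Gja5 was lower with amiodarone (0.647, 0.585 to 0.715). The part of endothelium in the Gja5 value was not tested, and 21.0% of the 50-base stretches of Gja5 occur in Zfp697 as well.

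The balance of atrial and ventricular genes was followed within each library, as the sum of FPKM of Myl7, Myl4, Sln and Nppa over the sum of Myl2, Myl3 and Myh7. It was 36.5, 24.0, 37.2 and 25.8 in the 4 libraries. The libraries with amiodarone thus had a lower balance than those without it. The atrial sum was 826, 439, 546 and 365 FPKM, while the ventricular sum was 22.6, 18.3, 14.7 and 14.1 FPKM and came almost entirely from Myl3 and Myh7. Without Myh7, the gene that shares sequence with Myh6, the balance was 43.8, 29.9, 52.0 and 40.2. This kept the order of the libraries but put the combination close to vehicle. Myl7 over Myl3 was 19.2 (16.9 to 21.7) with vehicle and 18.1 (15.2 to 21.6) with the combination, with overlapping intervals. It was 12.0 (10.5 to 13.8) with amiodarone and 22.3 (18.9 to 26.4) with dabigatran. The lower balance of the combination library thus depended on Myh7. Without Myl7 and Myl3, the most abundant gene of each list, it was 119, 72.7, 73.4 and 39.4, and amiodarone was then close to dabigatran.

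Ratios between members within 1 library do not depend on how much heart muscle the tissue held, provided that both genes come from the same cells. Myh6 over Myh7 was 52.4 (47.4 to 58.0) with vehicle, 37.3 (33.8 to 41.2) with amiodarone, 33.2 (30.3 to 36.6) with dabigatran and 20.7 (19.0 to 22.5) in the combination library. The intervals of the single-drug libraries overlapped, and those of vehicle and of the combination overlapped no other. Nppa over Myl7 was 0.223, 0.306, 0.331 and 0.194, higher with each drug alone than with vehicle or the combination. Actc1 over Tnnt2 was 1.56, 1.10, 2.06 and 1.27, with intervals that did not overlap. Sln over Pln was highest with vehicle, at 3.10 (2.84 to 3.38), and was 2.14, 2.37 and 1.87 in the other libraries. Myl4 over Myl7 was 0.792, 0.902, 0.790 and 0.811, a range within which only amiodarone against vehicle and dabigatran had intervals that did not overlap. Beyond counting error, the values of these members thus did not differ between libraries by 1 common factor. Other cells also express Pln, and reads of Myh6 and Myh7 are divided by estimation, which the intervals do not cover. The part that the amount of heart muscle had in these ratios was not tested.

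**Figure D3:**
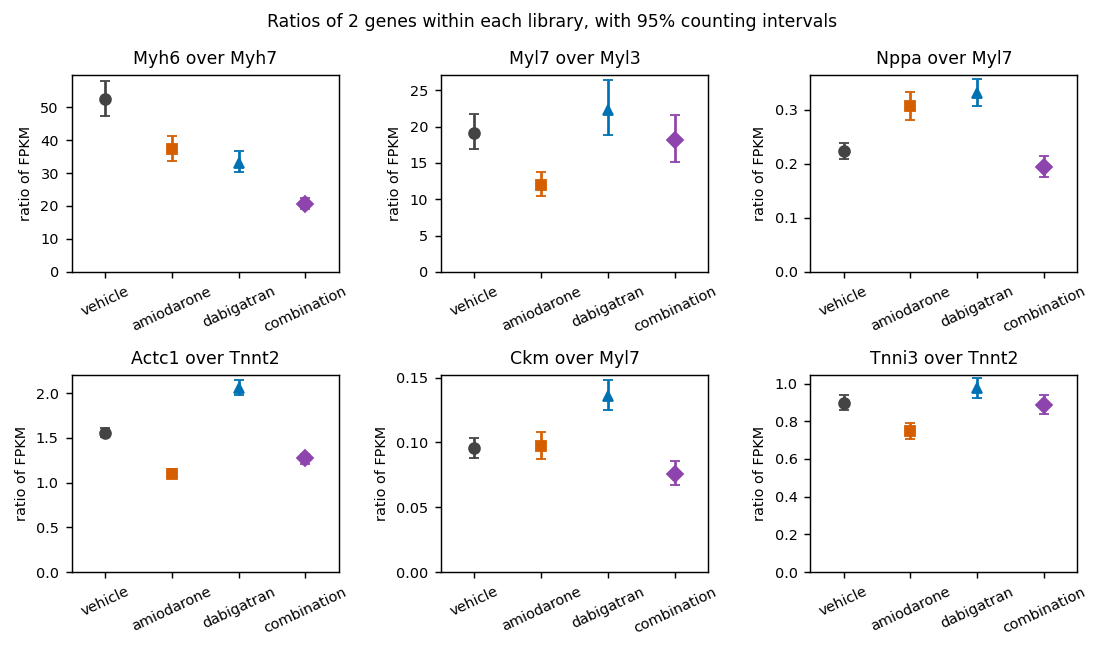
Ratio of FPKM of 2 genes within each library, for 6 pairs of cardiac muscle genes, with axes that start at 0. Points are ratios and bars are 95% counting intervals. Myh6 over Myh7 goes from 52.4 with vehicle to 20.7 with the combination, and Actc1 over Tnnt2 is lowest with amiodarone (1.10) and highest with dabigatran (2.06).

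Other cardiac genes, outside the 36, were read from lists of further sarcomere, metabolic, ion channel and transcription factor genes. With amiodarone against vehicle, 13 of 20 sarcomere genes were at least 1.5-fold lower (7.22% of all genes) and none was that much higher (5.49%). Jph2, which holds the reticulum near the cell membrane, had 16.9, 8.36, 14.5 and 9.91 FPKM, and Nexn, a Z-disc protein, had 15.9, 12.1, 15.5 and 11.7 FPKM. With dabigatran, 7 of 20 were at least 1.5-fold lower (1.52% of all genes). With the combination, 1 of 17 was that much lower than with amiodarone (2.07% of all genes) and 4 of 19 were than with dabigatran (4.39%). Of 8 metabolic genes, to be read against the same shares of all genes, 6 were at least 1.5-fold lower with amiodarone than with vehicle, none with dabigatran, and 6 with the combination than with dabigatran. The muscle isoforms of cytochrome c oxidase showed this: Cox7a1 had 39.9, 21.3, 35.0 and 16.6 FPKM and Cox8b had 37.6, 22.7, 32.0 and 17.96 FPKM, the same order as Mb and Ckm, although Cox6a2, the most abundant gene of that list, had 139.1, 124.2, 93.8 and 129.6 FPKM.

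Of the ion channels, 4 of 8 that passed the level were at least 1.5-fold lower with amiodarone (7.22% of all genes) and 1 was higher (5.49%). Kcnq1, a channel of the slow repolarising current that epithelia also express and the most abundant of the list, had 12.8, 15.3, 14.4 and 13.4 FPKM, and its ratio of amiodarone to vehicle was above 1, with an interval of 1.08 to 1.33. Kcnh2, the channel of the rapid repolarising current, had 7.92, 3.93, 6.83 and 4.82 FPKM, and Kcnj2, the inward rectifier that many cells express, had 4.07, 7.17, 4.69 and 5.81 FPKM. Of the further atrial list, 2 of 4 genes were at least 1.5-fold lower with amiodarone (7.22% of all genes) and 3 of 4 with dabigatran (1.52%). Its most abundant gene, Nr2f2, a nuclear receptor also made by venous endothelium, had 30.9, 26.4, 30.3 and 27.1 FPKM, and the kinase gene Sbk3 had 22.4, 9.53, 14.4 and 10.99 FPKM. Of the 3 further ventricular genes, Fhl2 had 10.5, 5.16, 7.81 and 5.73 FPKM and was lower with amiodarone (0.493, 0.397 to 0.610). Mpped2 (1.44, 1.06 to 1.98) and Hey2 (1.48, 1.07 to 2.05) were higher with amiodarone than with vehicle, from 65 to 111 reads. Among the transcription factors of heart development, 5 of 7 were at least 1.5-fold lower with amiodarone (7.22% of all genes). Nkx2-5 had 2.14, 1.09, 2.23 and 1.15 FPKM from 30 to 58 reads, and Gata4 had 1.99, 1.08, 1.73 and 1.10 FPKM. Tbx5, which lung mesenchyme also expresses, had 20.7, 20.9, 18.9 and 20.2 FPKM and did not separate the libraries. Kcne1, Bmp10 and Irx4 were not analysed here.

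**Figure D4:**
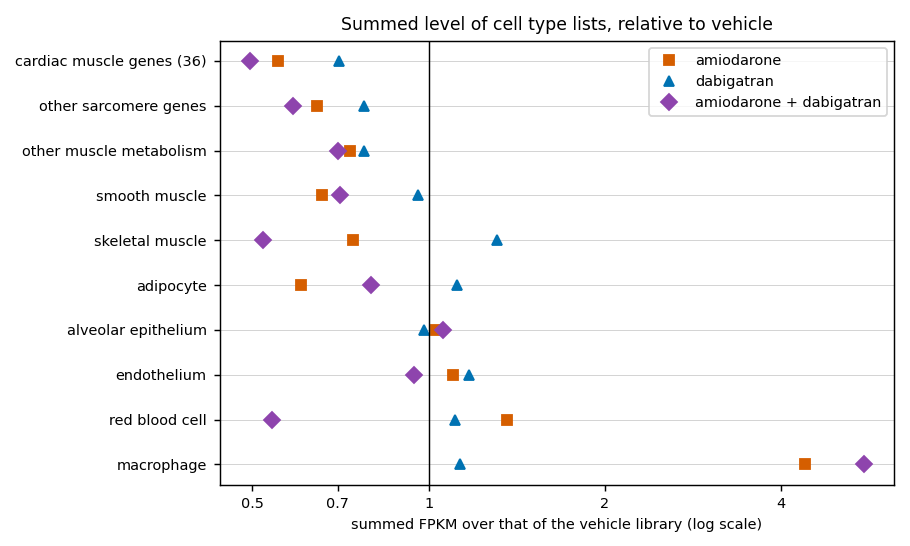
Summed FPKM of gene lists in the 3 drug libraries, each divided by the sum in the vehicle library, on a log axis. The cardiac muscle genes lie at 0.554 with amiodarone, 0.704 with dabigatran and 0.496 for the combination of drugs. The macrophage list lies at 4.39 and 5.53 in the libraries with amiodarone, where Chil3 makes up most of its sum.

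Other cell types of the lung moved with the cardiac genes in part. The smooth muscle list of 10 genes summed to 705, 465, 676 and 498 FPKM, so that it was lower in the libraries with amiodarone and close to vehicle with dabigatran. With amiodarone, 4 of its 10 genes were at least 1.5-fold lower than with vehicle (7.22% of all genes), and with dabigatran none was (1.52%). Acta2, smooth muscle actin, had 180.8, 99.9, 171.1 and 121.4 FPKM. The dabigatran library was therefore lower in the cardiac members, at 0.704 of their vehicle sum, with the smooth muscle sum at 0.958. The macrophage list of 10 genes summed to 227, 997, 257 and 1256 FPKM. Chil3, a secreted protein of alveolar macrophages, had 90.3, 731, 113 and 940.3 FPKM, most of the sum in the libraries with amiodarone. Ratios of amiodarone to vehicle in this list ran from 1.05 to 8.10, with a median of 2.32. The dabigatran library was thus below vehicle in the cardiac sum and near vehicle in the macrophage sum, at 1.13. The adipocyte list of 9 genes summed to 27.7, 16.8, 30.9 and 22.1 FPKM and the red blood cell list of 5 genes to 15785, 21407, 17537 and 8524 FPKM. The alveolar epithelium list of 7 genes, from 27325 to 29432 FPKM, differed least in its sum. Most of that sum was Sftpc, with 20077 of 27826 FPKM in the vehicle library. Ratios of amiodarone to vehicle in this list ran from 0.976 to 1.72. Beyond the counting interval, 6 of the 7 genes were higher (19.6% of all genes) and 1 was lower (30.1%). Whether the share of these cells had a part in the cardiac values was not tested.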

How the data were processed

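Poly(A) RNA from the left lung was sequenced by the authors on DNBseq, 1 library per treatment group (vehicle, amiodarone, dabigatran, amiodarone + dabigatran). The authors mapped reads to GRCm38.p6 with HISAT 2.0.4 and Bowtie2 2.2.5 and deposited, for 17780 genes, estimated counts from RSEM 1.2.8 and a normalised value. The deposited values were read as FPKM: over 9946 genes the reads per unit of value differed between amiodarone and vehicle by a factor of 1.07, as did total reads (1.07). A further 8 columns of means were not used. Whether counting used strand is not given in the sources used here, and 6 members overlap another gene of the table, namely Myh6, Myl4, Myl2, Pln, Mb and Fabp3.

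Ratios of FPKM were computed with exact Clopper-Pearson 95% intervals from the estimated reads, rounded to whole numbers (Python 3.11.15, pandas 2.3.3, scipy 1.17.1). A gene was called at 1.5-fold with at least 1 FPKM in either library, and medians used log2(FPKM + 1), which understates differences of low genes. No test between groups was made, because each has 1 library. The procedure was checked on simulated data, with planted changes well above 1.5-fold and counting noise only. That check does not cover changes near 1.5-fold or the spread between animals. Coordinates and promoter windows came from RefSeq (GRCm38.p6) and shared 50-base stretches from GENCODE. The alternatives were other folds, levels, scalings and member lists. Values are given for all 36 members. Other genes were named from among the 3 of highest mean level in each list, with Acta1 and Acta2 added as actins related to Actc1. The members and lists were chosen with earlier results of these data known.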

Additional observations from a re-analysis of the deposited data

Results flagged for a closer look

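For 4 members, dabigatran went with opposite differences without and with amiodarone, each beyond its counting interval. The ratio of dabigatran to vehicle and the ratio of the combination to amiodarone were 0.789 and 1.05 for Actc1, 0.649 and 1.07 for Tnni3, 0.879 and 1.30 for Ankrd1, and 0.751 and 1.16 for Casq2. With 1 library per group, the difference between these ratios was not tested. The intervals of the second ratio for Actc1, Tnni3 and Casq2 only just excluded 1. After median-ratio scaling, an alternative chosen after seeing the data, they included 1 for Actc1 (1.02, 0.979 to 1.06), Tnni3 (1.05, 0.979 to 1.12) and Casq2 (1.13, 0.974 to 1.32), so that 1 of the 4, Ankrd1 (1.27, 1.12 to 1.43), kept the opposite differences beyond both intervals. Tnnc1, Ldb3 and Srl had the same pair of directions (0.524 and 1.06, 0.714 and 1.07, 0.758 and 1.04), with second intervals that span 1.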

How the results depend on the processing

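The 4 median log2 differences kept their sign under every alternative run. Of 262 rescaled single-gene ratios, 258 stayed within the counting interval of the main ratio and 4 moved outside it. A reversal was looked for only in ratios called at 1.5-fold. The rescalings were too small to bring such a ratio across 1, so the absence of reversals was fixed in advance. The count of members called depended on the threshold. At 2-fold, 9 members were lower with amiodarone than with vehicle, 0 with dabigatran than with vehicle, 0 with the combination than with amiodarone and 4 with the combination than with dabigatran. The share of all genes at 2-fold was not computed, so these counts have no background to be read against. With every ratio beyond its counting interval called, 27, 16 and 28 members were lower in the last 3 comparisons, and 1, 6 and 1 were higher. With no minimum level, 1 member was higher with dabigatran than with vehicle and 3 with the combination than with amiodarone, from genes with few reads. The share of all genes with no minimum level was not computed either. Without Myh6, the member with most reads, the share of reads was 0.404%, 0.237%, 0.302% and 0.217% (vehicle, amiodarone, dabigatran, combination), and without 5 members that other cells also express (Atp2a2, Gja5, Pln, Ankrd1 and Fabp3) it was 0.400%, 0.232%, 0.286% and 0.199%. The atrial to ventricular balance was 43.8, 29.9, 52.0 and 40.2 without Myh7, and 119, 72.7, 73.4 and 39.4 without Myl7 and Myl3. As geometric means it was 88.4 with vehicle, 70.8 with dabigatran and 44.9 with the combination, and amiodarone gave none because Myl2 had 0 reads there. Of the 4 members with opposite dabigatran ratios beyond both intervals, 1 remained after median-ratio scaling, which moved the ratio of combination to amiodarone. No paired analysis was possible because each group has 1 library. The members with fewest reads, such as Trdn, had the widest intervals, and the spread between animals is unknown.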
